A study of Mus musculus with 18 samples.

Results

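Transcripts of the colon epithelium were followed through arrays of sorted colon dendritic cells. The set held 41 genes, named by symbol in the array annotation, that mark epithelial cells in general, absorptive colonocytes, goblet cells, M cells or the epithelium's defence against microbes. Of these, 40 had 1 probe set of their own and were measured, out of 19937 genes with such a probe set, and all 40 were among the 14003 genes tested. The remaining member, Fcgbp, was present only on probe sets shared with other genes and was not counted. The cells came from the colon lamina propria of BALB/c mice that were 8 weeks old and were given 2% dextran sulfate sodium (DSS) or left untreated. The tissue was digested with collagenase, and MHC+CD11chigh cells were sorted into a CD103+CD11b-, a CD103+CD11b+ and a CD103-CD11b+ subset. Each of the 6 groups held 3 arrays: experiments 1 to 3 gave the untreated subsets and experiments 4 to 6 the DSS subsets, each experiment supplying all 3 subsets. The RNA, 5 ng per array, was amplified before hybridisation, and the values are log2 expression values. The labels do not give the duration of DSS, the number of mice behind an array or whether experiments used separate animals, and the p-values refer to the spread among arrays, which may be technical. No experiment held both conditions, so the experiment and DSS cannot be told apart.

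The colon is lined by a single layer of epithelial cells that lies above the lamina propria. Absorptive colonocytes take up salt and water, goblet cells secrete the mucus gel, and M cells overlying lymphoid follicles carry particles and bacteria to the cells beneath. The cells are joined by claudin and cadherin junctions and filled with simple-epithelial keratins. DSS in drinking water injures this layer and causes colitis. Dendritic cells lie close below the epithelium, and these arrays do not tell RNA of epithelial cells in a sort from expression by the dendritic cells themselves.

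Promoters are shown for 3 members. Gp2, a surface glycoprotein by which M cells bind fimbriated bacteria, had the widest range of group means of the set. Reg3b and Reg3g, which encode C-type lectins that act against bacteria, had the highest DSS differences of the set. Each sequence is the 250 bases before the RefSeq gene start on GRCm38.p6, 5′ to 3′ on the gene's strand. Capitals mark matches to TATAAA or to the STAT-type motif TTCNNNGAA. Both motifs and the ETS-type core GAGGAA were searched on both strands.
Gp2, chr7:119459273-119459522, minus strand: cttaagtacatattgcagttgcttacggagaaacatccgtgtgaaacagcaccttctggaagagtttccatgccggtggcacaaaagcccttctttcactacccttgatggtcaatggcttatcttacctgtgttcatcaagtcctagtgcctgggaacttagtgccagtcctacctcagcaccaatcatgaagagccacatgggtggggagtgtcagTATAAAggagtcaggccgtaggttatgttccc
Reg3b, chr6:78370635-78370884, plus strand: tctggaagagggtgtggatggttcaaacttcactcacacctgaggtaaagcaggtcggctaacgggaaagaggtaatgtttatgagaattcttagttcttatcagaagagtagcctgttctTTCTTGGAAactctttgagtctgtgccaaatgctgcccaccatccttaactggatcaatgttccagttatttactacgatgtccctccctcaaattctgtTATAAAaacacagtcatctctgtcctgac
Reg3g, chr6:78468875-78469124, minus strand: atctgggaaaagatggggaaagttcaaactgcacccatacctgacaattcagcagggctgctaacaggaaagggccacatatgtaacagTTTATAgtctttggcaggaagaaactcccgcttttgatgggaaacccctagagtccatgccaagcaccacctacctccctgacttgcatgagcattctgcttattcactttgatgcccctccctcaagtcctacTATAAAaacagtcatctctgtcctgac
TATAAA began 32 bases before the start in Gp2, 29 in Reg3b and 27 in Reg3g, and Reg3g held a further match on the opposite strand. The STAT-type motif was found in Reg3b, 129 bases before the start. Reg3b and Reg3g shared their last 20 bases before the start, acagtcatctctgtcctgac. Over 32851 promoters of the reference, 12.4% held TATAAA, 7.02% the STAT-type motif and 23.3% GAGGAA. Among the 31 members with a promoter entry, 8 held TATAAA, 4 the STAT-type motif and 10 GAGGAA. A member was counted if any of its entries matched, while the percentages count single entries, so their units differ. These matches describe the letters and say nothing of binding.

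Dendritic cell genes were measured on every array, and macrophage genes were highest in the CD103-CD11b+ gate. The receptor gene Flt3 lay between 5.93 and 8.71, the transcription factor gene Zbtb46 between 5.63 and 7.11 and Itgax, which encodes CD11c, between 8.36 and 9.50. Flt3 and Zbtb46 were lowest in untreated CD103-CD11b+ cells among the untreated groups, at 6.44 ± 0.44 (SD, n = 3) and 6.02 ± 0.34. The mean of 7 macrophage genes was 5.83 ± 0.21, 6.79 ± 0.09 and 7.99 ± 0.45 in untreated CD103+CD11b-, then CD103+CD11b+, then CD103-CD11b+ cells, and 6.26 ± 0.02, 6.67 ± 0.03 and 7.82 ± 0.19 after DSS. The sort markers followed the gates, with untreated means of Itgae (CD103) of 9.37, 8.84 and 6.35 in the CD103+CD11b-, the CD103+CD11b+ and the CD103-CD11b+ subset. Itgae was higher after DSS in the CD103-CD11b+ gate, at 7.44 against 6.35 (adjusted p = 0.00103, limma), as was Clec9a, at 5.34 against 3.94 (adjusted p = 0.0451). In the CD103+CD11b- gate Sirpa was higher after DSS, at 7.33 against 6.49 (adjusted p = 0.0215, limma). Itgam (CD11b) measured 6.13 against 5.14 there (adjusted p = 0.084). Arrays of a group correlated between 0.965 and 0.982 over all probe sets.

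Epithelial genes were measured on all 18 arrays. Of the 40 members, 36 exceeded a log2 value of 3.51, the 40th percentile of all values, on every array, and the others, Aqp4, Aqp8, Retnlb and Mptx1, did so on 14, 9, 17 and 17 arrays. This level is a percentile and no limit of detection. Of all 19937 genes, 14003 exceeded it on at least 3 arrays, and the share above it on every array was not taken. An epithelial score, the mean over the 40 genes, was taken for each array. Its mean in untreated cells was 7.10 ± 0.16 (SD, n = 3) in CD103+CD11b-, 7.43 ± 0.21 in CD103+CD11b+ and 7.22 ± 0.21 in CD103-CD11b+ cells. After DSS the means were 6.75 ± 0.14, 7.04 ± 0.11 and 6.94 ± 0.24 in the same subsets. The mean score was lower after DSS in each subset, by 0.36, 0.38 and 0.28. With the median of the 40 genes in place of the mean the differences were -0.553, -0.552 and -0.451. In CD103-CD11b+ cells the difference of means was -0.170 without untreated experiment 2 and -0.155 without DSS experiment 5. In bulk samples, fewer cells of a type and less RNA per cell cannot be told apart.

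**Figure D1:**
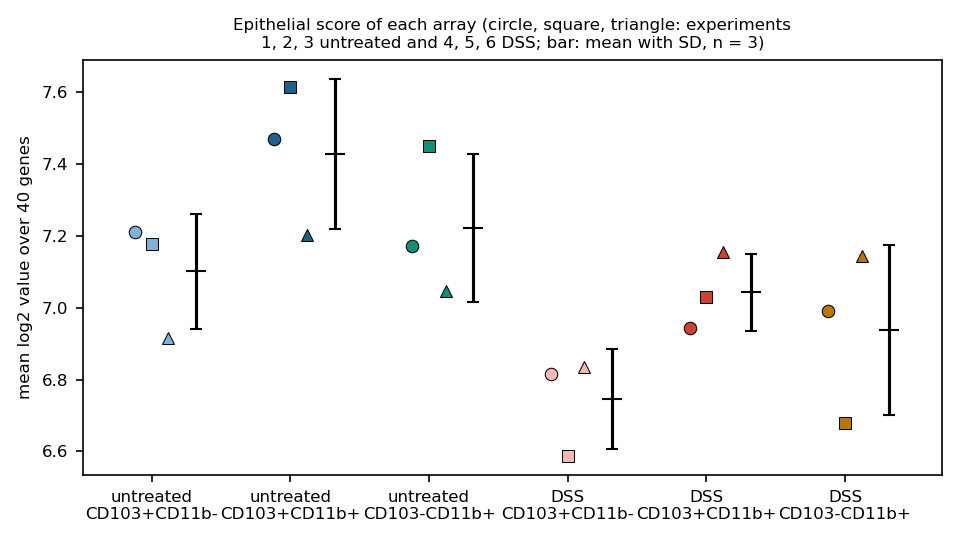
Epithelial score of each array, the mean log2 value over 40 genes, by subset and condition. Points are arrays, shaped by experiment, and bars give the mean and SD of 3 arrays. The 3 DSS arrays lie below the 3 untreated arrays in CD103+CD11b- and in CD103+CD11b+ cells, and the groups overlap in CD103-CD11b+ cells.

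The single arrays showed 2 layers of variation, the subset and the experiment. In untreated cells the score was 7.21, 7.18 and 6.92 in CD103+CD11b- cells, 7.47, 7.61 and 7.20 in CD103+CD11b+ cells and 7.17, 7.45 and 7.05 in CD103-CD11b+ cells, in the order of experiments 1 to 3. After DSS it was 6.82, 6.59 and 6.83, then 6.94, 7.03 and 7.16, then 6.99, 6.68 and 7.14, in the order of experiments 4 to 6. Averaged over the 3 subsets, experiments 1 to 6 scored 7.28, 7.41, 7.05, 6.92, 6.77 and 7.04. The lowest untreated experiment (the third) and the highest DSS experiment (the sixth) therefore nearly met. Within the untreated arrays experiment 2 was the highest experiment for 26 of 40 members and experiment 3 the lowest for 29. Within the DSS arrays experiment 6 was the highest for 24 members and experiment 5 the lowest for 22. By single array, 38 of 40 members were above their own 18-array mean in the untreated CD103+CD11b+ array of experiment 2, and 3 were in the DSS CD103+CD11b- array of experiment 5, which held the lowest of 18 values for 13 members.

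**Figure D2:**
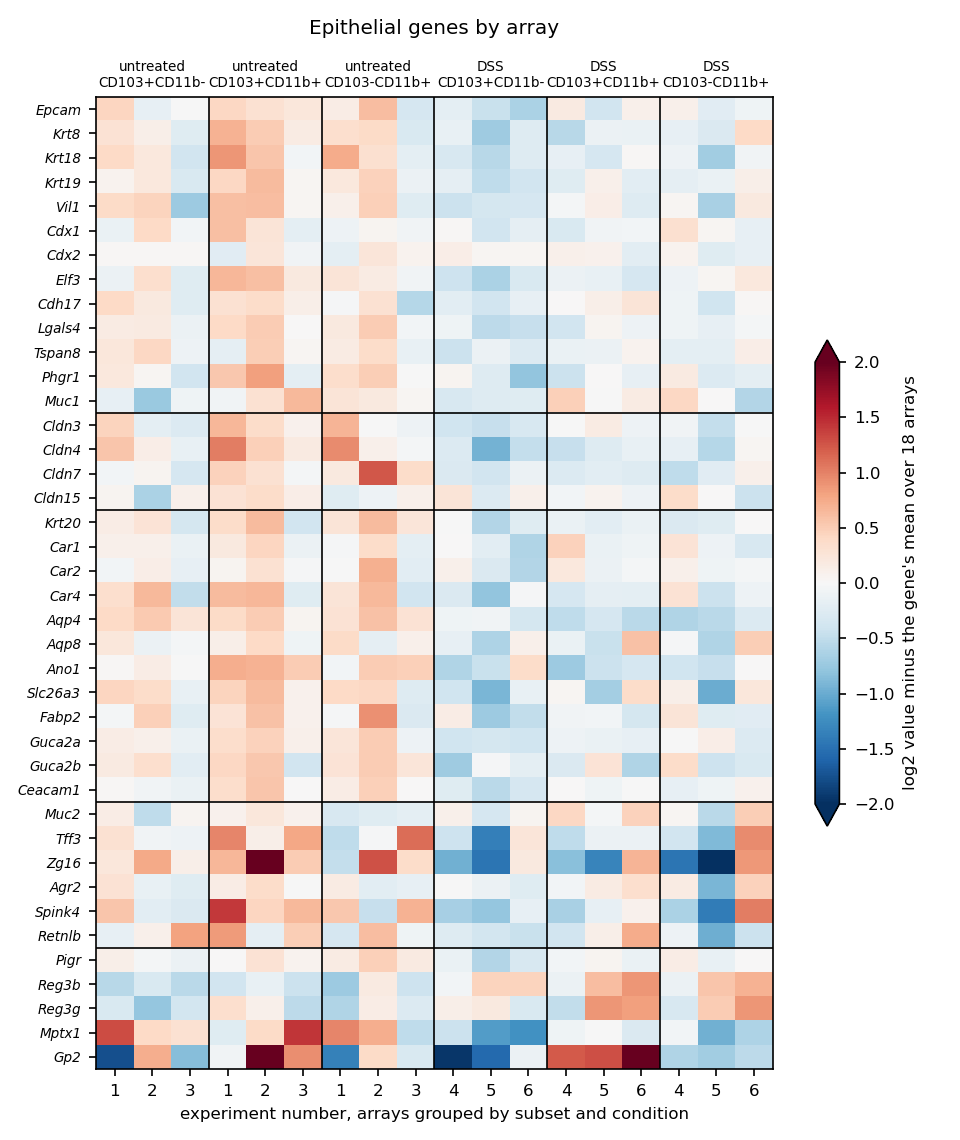
Log2 value of each of 40 epithelial genes minus its own mean over 18 arrays, with arrays grouped by subset and condition and numbered by experiment. Horizontal lines separate, from the top, shared epithelial genes, claudins, colonocyte genes, goblet cell genes and defence genes. Most rows pass from red in the untreated arrays to blue in the DSS arrays. Among the exceptions are Reg3b, Reg3g and Muc2, with higher DSS means, and Gp2, Cdx2, Cldn15 and Agr2, with small DSS differences over the subsets.

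The subsets were compared within each experiment. The epithelial score of CD103+CD11b+ cells exceeded that of CD103+CD11b- cells in 6 of 6 experiments, by 0.26, 0.44, 0.29, 0.13, 0.45 and 0.32. Against CD103-CD11b+ cells it was higher in 5 of 6 experiments, with differences of 0.298, 0.164, 0.155, -0.049, 0.352 and 0.012. With Gp2 left out of the score, an alternative chosen after seeing the data, it was higher in 4 of 6, with -0.0973 in experiment 4 and -0.0655 in experiment 6. CD103+CD11b+ cells held the highest value for 28, 25, 25, 12, 32 and 15 of 40 members in experiments 1 to 6, where they did so for 44.2%, 40.9%, 35.6%, 25.6%, 35.2% and 27.9% of all genes. In experiments 4 and 6 CD103-CD11b+ cells were highest for more members, 21 and 20 (38.2% and 34.6% of all genes). By member, CD103+CD11b+ cells were highest in 6 experiments for Gp2, in 5 for Krt18, Cdh17, Car1, Slc26a3 and Zg16, in 3 or 4 for 14 members each, and in 2 or fewer for the others. The shares of all genes with such counts were not taken. Over all genes the untreated CD103+CD11b- minus CD103+CD11b+ differences also leaned below 0, with a median of -0.064 against -0.24 for the members. After DSS the medians were 0.0021 for all genes and -0.25 for the members. In each condition 36 of 40 members had a lower mean in CD103+CD11b- than CD103+CD11b+ cells, against 60.5% of all genes untreated and 49.6% after DSS. Genes of B and plasma cells leaned the same way in untreated cells (7 of 9 below 0, median -0.24), as did genes of stroma and endothelium (11 of 13, median -0.27) and of macrophages (7 of 7, median -1.14, 5 called lower). After DSS the counts were 8 of 9 (median -0.028), 10 of 13 (median -0.11) and 7 of 7 (median -0.39, 2 called lower). Their part in the result was not tested.

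The gene by gene tests of subsets called few members. In the untreated comparison of CD103+CD11b- with CD103+CD11b+ cells, limma called 0 of 40 members at an adjusted p under 0.05, where 6.86% of all genes were called, and 5 members had an unadjusted p under 0.05, as had 18.7% of all genes. With the experiment number as a block, 3 members were called lower, Gp2, Elf3 and Ano1, where 8.25% of all genes were called in either direction. After DSS the same comparison called Gp2 among 40 members, beside 5.96% of all genes (6.78% with the block, which again called Gp2). Untreated CD103+CD11b+ against CD103-CD11b+ cells gave 0 calls (4.11% of all genes, 2 members and 16.1% of all genes at an unadjusted p under 0.05) and 1 with the block, Gp2 (4.98%). After DSS it gave 0 calls (1.58%, 1 member and 9.61% of all genes at an unadjusted p under 0.05) and again Gp2 with the block (2.18%). Untreated CD103+CD11b- against CD103-CD11b+ cells called 1 member, Cldn7, with and without the block (10.3% of all genes, 11% with the block). After DSS it called 0 (8.53%, 5 members and 18.2% of all genes at an unadjusted p under 0.05), and 1 with the block, Elf3 (9.6%). Apart from Gp2, the shares of members called in subset comparisons were below or near those of all genes.

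Gp2 was the only member with its highest value in CD103+CD11b+ cells in all 6 experiments. Gp2 measured 3.75, 6.24 and 4.66 in CD103+CD11b- cells, 5.43, 8.20 and 6.44 in CD103+CD11b+ cells and 4.15, 5.90 and 5.20 in CD103-CD11b+ cells without DSS. Gp2 after DSS measured 3.57, 3.96 and 5.40 in CD103+CD11b- cells, 6.75, 6.80 and 8.03 in CD103+CD11b+ cells and 4.90, 4.82 and 4.99 in CD103-CD11b+ cells. In every experiment the CD103+CD11b+ value was the highest of the 3, while the levels of whole experiments differed, so that the untreated subsets overlapped. The gap from CD103+CD11b- to CD103+CD11b+ cells was 1.69, 1.96 and 1.78 in experiments 1 to 3 and 3.17, 2.84 and 2.63 in experiments 4 to 6. From CD103-CD11b+ cells the gap was 1.28, 2.29 and 1.24, then 1.84, 1.98 and 3.04. After DSS the difference CD103+CD11b- minus CD103+CD11b+ was -2.88 ± 0.65 (SE) on the log2 scale, a 7.37-fold difference (adjusted p = 0.00855, limma, and 2.69e-06 with the block). This call was lost without experiment 4 of the CD103+CD11b- group (-2.51, adjusted p = 0.0607) or experiment 6 of the CD103+CD11b+ group (-2.46, adjusted p = 0.0594). The untreated difference was -1.81 ± 0.65 (SE) (adjusted p = 0.116, and 0.000201 with the block). CD103+CD11b+ minus CD103-CD11b+ cells gave 1.60 ± 0.65 (SE) untreated (adjusted p = 0.211, 0.00178 with the block) and 2.29 ± 0.65 (SE) after DSS (adjusted p = 0.099, 0.000192 with the block).

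**Figure D3:**
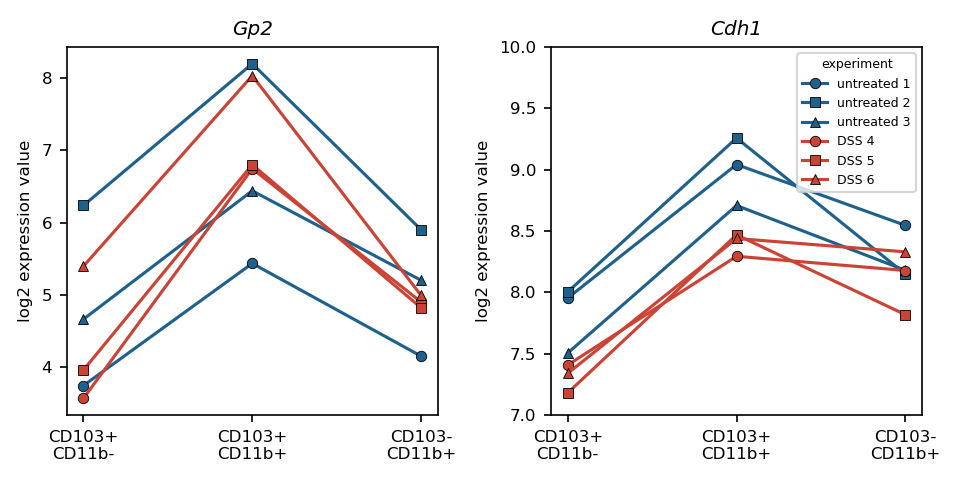
Log2 values of Gp2 and of Cdh1, which encodes E-cadherin, in the 3 subsets, with a line for each experiment (blue untreated, red DSS). In both genes the CD103+CD11b+ value is the highest of its experiment in 6 of 6 experiments.

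Cdh1, the gene of the epithelial adhesion protein E-cadherin and no member of the set, was set beside Gp2 because its highest value in each experiment was also in CD103+CD11b+ cells; it was chosen after its values were seen. The difference CD103+CD11b- minus CD103+CD11b+ was -1.18 ± 0.17 (SE) untreated (adjusted p = 0.000128, limma) and -1.09 ± 0.17 (SE) after DSS (adjusted p = 0.000349). The difference CD103+CD11b+ minus CD103-CD11b+ was 0.71 ± 0.17 (SE) untreated (adjusted p = 0.0242) and 0.29 ± 0.17 (SE) after DSS (adjusted p = 0.694), where the groups overlapped. In experiments 4 and 6 the CD103+CD11b+ value of Cdh1 exceeded the CD103-CD11b+ value by only 0.116 and 0.109. CD103+CD11b- minus CD103-CD11b+ cells gave -0.47 ± 0.17 (SE) untreated (adjusted p = 0.108, limma). After DSS this difference was -0.80 ± 0.17 (SE) (adjusted p = 0.00484), so Cdh1 was then lower in CD103+CD11b- cells than in both other subsets. After Gp2, the widest untreated difference CD103+CD11b- minus CD103+CD11b+ of a member was that of Zg16, at -1.0 ± 0.71 (SE). Its adjusted p was 0.503 by limma, and 0.0582 with the block, where the SE was 0.31.

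Cldn7 was the other member called between subsets without the block. Elf3 and Ano1 were called with the block, and also Elf3 after DSS with array weights (adjusted p = 0.0464) and Ano1 with only the groups compared in the fit (adjusted p = 0.0369). Elf3, an epithelial ETS transcription factor, had an untreated difference CD103+CD11b- minus CD103+CD11b+ of -0.50 ± 0.17 (SE) (adjusted p = 0.0824, limma, and 0.0451 with the block). After DSS its difference CD103+CD11b- minus CD103-CD11b+ was -0.50 ± 0.17 (SE) (adjusted p = 0.0743, and 0.0401 with the block). Elf3 measured 6.37, 6.82 and 6.24 in CD103+CD11b- cells, 7.15, 7.09 and 6.68 in CD103+CD11b+ cells and 6.74, 6.64 and 6.42 in CD103-CD11b+ cells without DSS. Elf3 after DSS measured 6.08, 5.85 and 6.18 in CD103+CD11b- cells, 6.37, 6.34 and 6.16 in CD103+CD11b+ cells and 6.39, 6.52 and 6.70 in CD103-CD11b+ cells. The untreated CD103+CD11b+ arrays were the highest of their experiment in all 3 experiments, and after DSS the CD103-CD11b+ arrays were the highest in all 3. Ano1, a calcium-activated chloride channel that is also the defining marker of interstitial cells of Cajal, had an untreated difference CD103+CD11b- minus CD103+CD11b+ of -0.59 ± 0.21 (SE) (adjusted p = 0.122, limma, and 0.038 with the block). Cldn7, a claudin of the basolateral membrane, had an untreated difference CD103+CD11b- minus CD103-CD11b+ of -0.72 ± 0.22 (SE) (adjusted p = 0.0437). The high side of Cldn7 rested on experiment 2 of the CD103-CD11b+ group, at 8.70. Without it the difference was -0.39 (adjusted p = 0.251), and the call was also lost without any of the 3 CD103+CD11b- arrays (-0.74, -0.80 and -0.60, adjusted p = 0.0873, 0.058 and 0.174).

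Most epithelial genes had a lower mean after DSS, and few passed the test singly. Over the 3 subsets, with an experiment counted once, 37 of 40 members had a lower mean after DSS, with a median of -0.37, against a median of -0.0074 and 52% below 0 for all genes. Limma called 2 members, Aqp4 and Mptx1, both lower, where 0.186% of all genes (21 higher and 5 lower) were called. An unadjusted p under 0.05 was reached by 24 members and by 10.5% of all genes. The 3 DSS experiments lay wholly below the 3 untreated experiments for 13 members, where this held for 7.73% of all genes. These were Guca2a, Ceacam1, Lgals4, Krt19, Pigr, Cldn3, Cldn4, Cldn7, Elf3, Ano1, Retnlb, Aqp4 and Mptx1. Muc2, Reg3g and Reg3b had a mean above their untreated mean, by 0.15, 0.51 and 0.74.

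**Figure D4:**
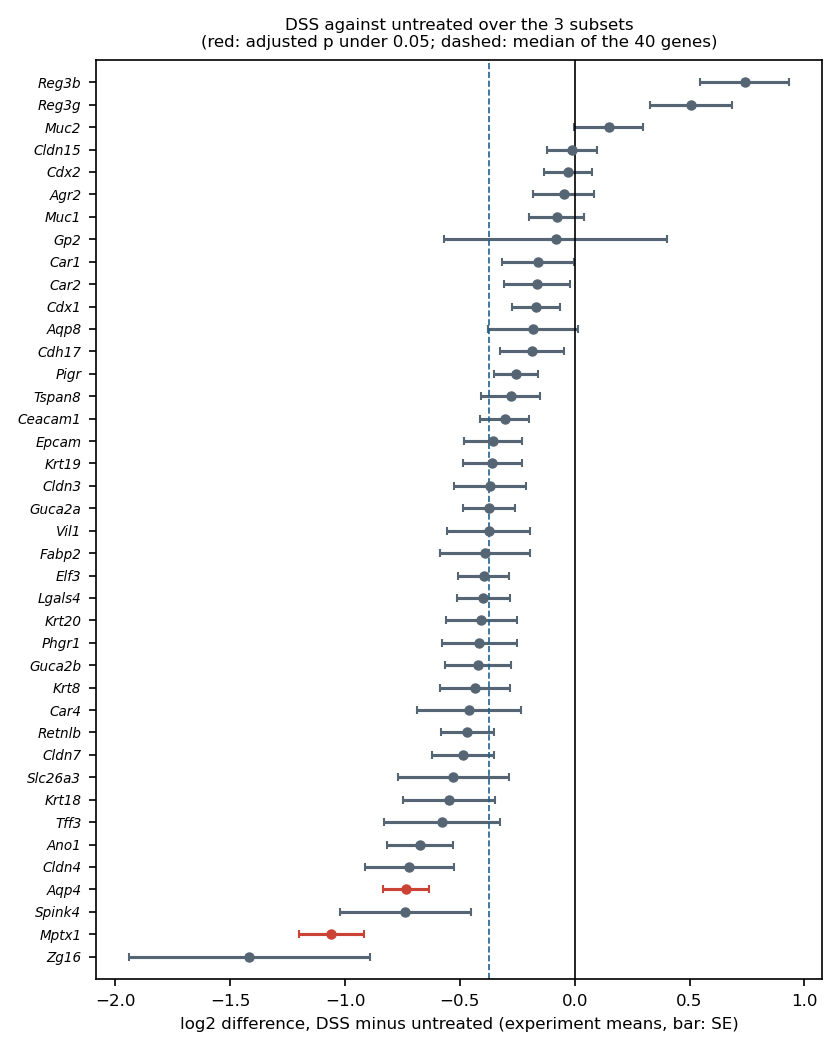
Log2 difference between DSS and untreated experiments, averaged over the 3 subsets, for each of 40 epithelial genes, with SE bars. Of the 40 genes 37 lie below 0, the dashed median is -0.37, and Mptx1 and Aqp4, in red, have an adjusted p under 0.05.

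Each subset taken alone gave differences of the same sign. The members' median DSS difference was -0.39 in CD103+CD11b-, -0.38 in CD103+CD11b+ and -0.26 in CD103-CD11b+ cells, against 0.018, -0.060 and 0.027 for all genes. Means were lower after DSS for 34, 35 and 35 of 40 members. CD103+CD11b- cells gave 0 calls by limma (0.129% of all genes), with 12 members and 6.08% of all genes at an unadjusted p under 0.05. CD103+CD11b+ cells gave 2 calls, Ano1 and Aqp4, both lower (0.0857% of all genes), and CD103-CD11b+ cells gave 1, Aqp4, lower (0.1%). Members whose DSS arrays lay wholly below the untreated arrays numbered 12, 12 and 4, where this held for 4.78%, 11.2% and 3.94% of all genes. The difference of DSS changes between subsets was called for 0 members in each of 3 interaction tests by limma, in which 0% of all genes were called. Without the block, 1 member had an unadjusted p under 0.05 in each, Cldn7, Ano1 and Elf3, where 3.64%, 4.83% and 5.56% of all genes had one. With the block 0% of all genes were called as well. For CD103+CD11b- minus CD103+CD11b+ cells the block gave Gp2 -1.07 ± 0.36 (SE) (unadjusted p = 0.0098, adjusted p = 0.807, limma). Ano1 had 0.86 ± 0.23 (SE) there (unadjusted p = 0.00204, adjusted p = 0.793). For CD103+CD11b+ minus CD103-CD11b+ cells it gave Krt8 -0.57 ± 0.24 (SE) and Ano1 -0.55 ± 0.23 (SE) (adjusted p = 0.726 and 0.729).

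Genes of other cell types were set beside these differences. Genes of B and plasma cells had a lower DSS mean in 9 of 9 cases, with a median of -0.26 and none called. Their mean level was 7.59, 7.43 and 7.45 in experiments 1 to 3 and 7.11, 7.23 and 7.26 in experiments 4 to 6. Stroma and endothelium genes had a median of -0.014 over 13 genes, with 7 below 0, and levels from 5.77 to 6.05 untreated and 5.74 to 6.0 after DSS. Neutrophil genes had a median of 0.31 over 5 tested genes and the mean level of all 8 listed genes reached 4.42 and 4.92 in experiments 5 and 6, against 3.77 to 4.06 in the other experiments. The 3 tested genes of interstitial cells of Cajal and glia had a median of -0.018. T cell genes had mean levels of 5.42, 5.40 and 5.47 in experiments 1 to 3 and 5.30, 5.40 and 5.45 in experiments 4 to 6. Macrophage genes had 6.78, 7.13 and 6.70, then 6.98, 6.87 and 6.91. Erythroid genes had 3.35, 3.36 and 3.46, then 3.31, 3.26 and 3.31, all under the filter level of 3.51. The part of these cells in the result was not tested.

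Genes shared by epithelial cells had lower means after DSS. All 13 of the sublist did so over the 3 subsets, from -0.029 for Cdx2 to -0.55 for Krt18, with 0 called by limma (0.186% of all genes). An unadjusted p under 0.05 was reached by 7 of them and by 10.5% of all genes. Krt8, the main type II keratin of simple epithelia, was measured far above the filter level. Krt8 measured 10.30, 10.14 and 9.77 in CD103+CD11b- cells, 10.72, 10.53 and 10.19 in CD103+CD11b+ cells and 10.35, 10.41 and 9.72 in CD103-CD11b+ cells without DSS. Krt8 after DSS measured 9.88, 9.31 and 9.77 in CD103+CD11b- cells, 9.47, 9.91 and 9.88 in CD103+CD11b+ cells and 9.86, 9.73 and 10.41 in CD103-CD11b+ cells. The DSS arrays lay below the untreated arrays in CD103+CD11b+ cells, with a difference of -0.73 ± 0.22 (SE) (adjusted p = 0.275), and overlapped in the other subsets.

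Krt19, a type I keratin of simple epithelia, had lower experiment means in all 3 DSS experiments than in any untreated one. Krt19 measured 9.02, 9.16 and 8.65 in CD103+CD11b- cells, 9.36, 9.57 and 8.99 in CD103+CD11b+ cells and 9.16, 9.41 and 8.82 in CD103-CD11b+ cells without DSS. Krt19 after DSS measured 8.77, 8.43 and 8.57 in CD103+CD11b- cells, 8.71, 9.05 and 8.74 in CD103+CD11b+ cells and 8.76, 8.82 and 9.06 in CD103-CD11b+ cells. The difference over the subsets was -0.36 ± 0.13 (SE) (adjusted p = 0.382, limma). Lgals4 encodes a galectin of the gut epithelium. Lgals4 measured 9.81, 9.83 and 9.53 in CD103+CD11b- cells, 10.04, 10.16 and 9.66 in CD103+CD11b+ cells and 9.84, 10.16 and 9.60 in CD103-CD11b+ cells without DSS. Lgals4 after DSS measured 9.56, 9.12 and 9.19 in CD103+CD11b- cells, 9.26, 9.71 and 9.55 in CD103+CD11b+ cells and 9.56, 9.48 and 9.62 in CD103-CD11b+ cells. Its difference was -0.40 ± 0.12 (SE) (adjusted p = 0.274), and in single subsets the DSS and untreated arrays overlapped. Epcam, an adhesion molecule of most epithelia, spanned 6.92 to 8.17 over the 18 arrays with a difference of -0.35 ± 0.13 (SE) (adjusted p = 0.376). Vil1, the brush border protein villin, spanned 5.68 to 7.04, and Cdh17, an intestinal cadherin, 6.83 to 7.79. Cdx2, the transcription factor that sets intestinal identity, stayed between 5.13 and 5.6 and had the narrowest range of group means of the set, 0.18. The other 12 genes of the sublist, which also holds Krt18, Phgr1, Tspan8 and Muc1, had ranges of group means from 0.41 for Cdx1 to 0.94 for Elf3.

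The 4 claudins, which seal or open the space between epithelial cells, all had a lower mean after DSS, with a median of -0.43. Limma called 0 (0.186% of all genes), and 3 had an unadjusted p under 0.05, as had 10.5% of all genes. Cldn7 was named above for its subset difference. Cldn7 measured 7.40, 7.51 and 7.11 in CD103+CD11b- cells, 7.92, 7.76 and 7.41 in CD103+CD11b+ cells and 7.64, 8.70 and 7.82 in CD103-CD11b+ cells without DSS. Cldn7 after DSS measured 7.16, 7.07 and 7.33 in CD103+CD11b- cells, 7.17, 7.24 and 7.19 in CD103+CD11b+ cells and 6.95, 7.22 and 7.55 in CD103-CD11b+ cells. Its DSS difference was -0.49 ± 0.14 (SE) over the subsets (adjusted p = 0.258), and the DSS and untreated arrays did not overlap in CD103+CD11b+ or CD103-CD11b+ cells. Cldn4 had the largest claudin difference, -0.72 ± 0.19 (SE) (adjusted p = 0.235), Cldn3 had -0.37 ± 0.16 (SE) and Cldn15, a pore-forming claudin, had -0.012 ± 0.11 (SE).

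Genes of absorptive colonocytes and of ion and water transport included Aqp4 and Ano1, which were called after DSS. All 12 had a lower mean after DSS in each of the 3 subsets. Aqp4, which encodes a basolateral water channel, was called in 3 DSS comparisons. Aqp4 measured 4.28, 4.40 and 4.13 in CD103+CD11b- cells, 4.26, 4.39 and 3.94 in CD103+CD11b+ cells and 4.17, 4.46 and 4.16 in CD103-CD11b+ cells without DSS. Aqp4 after DSS measured 3.79, 3.81 and 3.53 in CD103+CD11b- cells, 3.37, 3.54 and 3.33 in CD103+CD11b+ cells and 3.27, 3.33 and 3.6 in CD103-CD11b+ cells. DSS arrays lay wholly below untreated arrays in each subset. Aqp4 fell in CD103+CD11b+ cells by 0.78 ± 0.15 (SE) (adjusted p = 0.0465), in CD103-CD11b+ cells by 0.86 ± 0.15 (SE) (adjusted p = 0.026) and over the subsets by 0.73 ± 0.10 (SE) (adjusted p = 0.0276, limma). In CD103+CD11b- cells the difference was -0.56 ± 0.15 (SE) (adjusted p = 0.291). Its DSS means in the other subsets, 3.41 and 3.40, lie under 3.51, the level of the filter. The call in CD103+CD11b+ cells was lost without any of its 6 arrays except untreated experiment 3 (adjusted p from 0.0939 to 0.23), and that in CD103-CD11b+ cells without untreated experiment 2 or 3 or DSS experiment 4 or 5 (adjusted p = 0.118, 0.0647, 0.105 and 0.0751). The call over the subsets was lost without experiment 1, 2, 4, 5 or 6 (adjusted p = 0.0961, 0.058, 0.0713, 0.129 and 0.0938).

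Ano1 measured 4.44, 4.56 and 4.41 in CD103+CD11b- cells, 5.15, 5.10 and 4.92 in CD103+CD11b+ cells and 4.35, 4.93 and 4.90 in CD103-CD11b+ cells without DSS. Ano1 after DSS measured 3.81, 3.98 and 4.79 in CD103+CD11b- cells, 3.68, 3.98 and 4.08 in CD103+CD11b+ cells and 4.01, 3.96 and 4.42 in CD103-CD11b+ cells. The untreated CD103+CD11b+ group had the highest mean of the 6 groups, and in that subset Ano1 fell by 1.14 ± 0.21 (SE), a 2.21-fold difference (adjusted p = 0.0465, limma). Leaving out any 1 of its 6 arrays ended this call (adjusted p from 0.0563 to 0.23), while the difference stayed between -1.03 and -1.225. The difference over the subsets was -0.67 ± 0.14 (SE) (adjusted p = 0.137, and 0.0301 without experiment 6). Without any other experiment Ano1 was not called over the subsets.

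Car1, a carbonic anhydrase of colonocytes, had a small DSS difference, -0.16 ± 0.16 (SE) (adjusted p = 0.778, limma). Car1 measured 10.74, 10.74 and 10.51 in CD103+CD11b- cells, 10.84, 11.07 and 10.53 in CD103+CD11b+ cells and 10.62, 11.02 and 10.45 in CD103-CD11b+ cells without DSS. Car1 after DSS measured 10.65, 10.44 and 10.04 in CD103+CD11b- cells, 11.11, 10.51 and 10.55 in CD103+CD11b+ cells and 10.93, 10.54 and 10.32 in CD103-CD11b+ cells. Its DSS and untreated arrays overlapped in each subset. Guca2a, the guanylin gene that regulates chloride and water secretion, gave -0.37 ± 0.11 (SE) (adjusted p = 0.296). Guca2a measured 10.79, 10.75 and 10.51 in CD103+CD11b- cells, 11, 11.10 and 10.74 in CD103+CD11b+ cells and 10.89, 11.16 and 10.55 in CD103-CD11b+ cells without DSS. Guca2a after DSS measured 10.24, 10.30 and 10.24 in CD103+CD11b- cells, 10.54, 10.51 and 10.49 in CD103+CD11b+ cells and 10.64, 10.78 and 10.38 in CD103-CD11b+ cells. DSS arrays lay below untreated arrays in CD103+CD11b- and CD103+CD11b+ cells.

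Ceacam1, an adhesion molecule that leukocytes express as well as epithelium, gave -0.31 ± 0.11 (SE) (adjusted p = 0.365, limma). Ceacam1 measured 10.30, 10.21 and 10.15 in CD103+CD11b- cells, 10.63, 10.83 and 10.29 in CD103+CD11b+ cells and 10.43, 10.76 and 10.29 in CD103-CD11b+ cells without DSS. Ceacam1 after DSS measured 10.04, 9.74 and 9.94 in CD103+CD11b- cells, 10.29, 10.20 and 10.27 in CD103+CD11b+ cells and 10.12, 10.19 and 10.36 in CD103-CD11b+ cells. Its groups separated in CD103+CD11b- cells. Fabp2, the intestinal fatty acid binding protein, gave -0.39 ± 0.20 (SE) (adjusted p = 0.535). Fabp2 measured 8.85, 9.37 and 8.64 in CD103+CD11b- cells, 9.16, 9.48 and 8.98 in CD103+CD11b+ cells and 8.87, 9.80 and 8.60 in CD103-CD11b+ cells without DSS. Fabp2 after DSS measured 9.03, 8.17 and 8.40 in CD103+CD11b- cells, 8.81, 8.83 and 8.54 in CD103+CD11b+ cells and 9.14, 8.65 and 8.66 in CD103-CD11b+ cells. Its groups separated in CD103+CD11b+ cells. Slc26a3, the chloride and bicarbonate exchanger of the colonocyte surface, spanned 5.45 to 7.09 with -0.53 ± 0.24 (SE), and its 3 lowest values were the arrays of experiment 5. Car4, a membrane-bound carbonic anhydrase, differed by -0.46 ± 0.23 (SE), the uroguanylin gene Guca2b by -0.42 ± 0.14 (SE) and the keratin gene Krt20 by -0.41 ± 0.15 (SE). Car2, a cytosolic carbonic anhydrase, and the water channel gene Aqp8 differed by -0.16 ± 0.14 (SE) and -0.18 ± 0.20 (SE), and none of these 5 was called.

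Goblet cell genes differed widely among the DSS experiments. Their mean level was 7.21, 7.22 and 7.21 in experiments 1 to 3 and 6.59, 6.26 and 7.24 in experiments 4 to 6. In experiment 6 the level was 6.89 in CD103+CD11b- and 7.32 in CD103+CD11b+ cells, below the lowest untreated arrays of these subsets (6.94 and 7.37), and 7.52 in CD103-CD11b+ cells, above the highest (7.25). Of 6 measured genes 5 had a lower mean after DSS, with 0 called by limma (0.186% of all genes). An unadjusted p under 0.05 was reached by 4 of them and by 10.5% of all genes. Zg16, a lectin of the mucus layer, had the widest spread within a group. Zg16 measured 7.72, 8.24 and 7.61 in CD103+CD11b- cells, 8.16, 10.43 and 8.00 in CD103+CD11b+ cells and 7.01, 8.77 and 7.87 in CD103-CD11b+ cells without DSS. Zg16 after DSS measured 6.53, 6.04 and 7.68 in CD103+CD11b- cells, 6.65, 6.17 and 8.17 in CD103+CD11b+ cells and 6.04, 5.41 and 8.36 in CD103-CD11b+ cells. The highest value was that of untreated experiment 2 in CD103+CD11b+ cells and the lowest that of DSS experiment 5 in CD103-CD11b+ cells, and experiment 6 lay among the untreated values. The difference over the subsets was -1.42 ± 0.52 (SE) (adjusted p = 0.391).

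Spink4, a protease inhibitor of goblet cells, and Tff3, the trefoil peptide that goblet cells secrete with mucin, also ranged widely. Spink4 measured 7.65, 6.88 and 6.82 in CD103+CD11b- cells, 8.51, 7.53 and 7.74 in CD103+CD11b+ cells and 7.64, 6.64 and 7.79 in CD103-CD11b+ cells without DSS. Spink4 after DSS measured 6.44, 6.33 and 6.93 in CD103+CD11b- cells, 6.45, 6.94 and 7.18 in CD103+CD11b+ cells and 6.46, 5.7 and 8.13 in CD103-CD11b+ cells. Tff3 measured 6.19, 5.82 and 5.78 in CD103+CD11b- cells, 6.86, 6.01 and 6.66 in CD103+CD11b+ cells and 5.38, 5.86 and 7.0 in CD103-CD11b+ cells without DSS. Tff3 after DSS measured 5.47, 4.53 and 6.12 in CD103+CD11b- cells, 5.38, 5.77 and 5.77 in CD103+CD11b+ cells and 5.50, 5.01 and 6.83 in CD103-CD11b+ cells. In CD103-CD11b+ cells experiment 6 stood above experiments 4 and 5 for both genes. Their differences over the subsets were -0.74 ± 0.29 (SE) and -0.58 ± 0.25 (SE) (adjusted p = 0.409 and 0.465, limma). Muc2, the gel-forming mucin of the colon, differed by 0.15 ± 0.15 (SE) (adjusted p = 0.782), and Agr2, the disulfide isomerase that goblet cells need for mucin folding, by -0.047 ± 0.13 (SE). Retnlb, a secreted goblet cell protein, differed by -0.47 ± 0.12 (SE) (adjusted p = 0.195), with all 3 DSS experiments below all untreated ones.

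Defence genes split in direction. Mptx1, which encodes a mucosal pentraxin, fell over the subsets by 1.06 ± 0.14 (SE), a 2.08-fold difference (adjusted p = 0.0276, limma). Mptx1 measured 5.96, 5.06 and 4.98 in CD103+CD11b- cells, 4.42, 5.05 and 6.09 in CD103+CD11b+ cells and 5.64, 5.39 and 4.16 in CD103-CD11b+ cells without DSS. Mptx1 after DSS measured 4.24, 3.55 and 3.45 in CD103+CD11b- cells, 4.58, 4.66 and 4.37 in CD103+CD11b+ cells and 4.6, 3.70 and 4.05 in CD103-CD11b+ cells. The experiment means did not overlap, while in CD103+CD11b+ and CD103-CD11b+ cells some DSS arrays reached untreated values. Without experiment 4 the adjusted p was 0.00362, and without experiment 1, 2, 3, 5 or 6 it was 0.0923, 0.0667, 0.0542, 0.129 and 0.0803. Pigr, the receptor that carries IgA across the epithelium, differed by -0.26 ± 0.10 (SE) (adjusted p = 0.396), from 8.76 to 9.37 in untreated and 8.29 to 9.03 in DSS arrays. Gp2 differed over the subsets by -0.083 ± 0.49 (SE) (adjusted p = 0.961).

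Reg3b and Reg3g had higher DSS means in each subset. Reg3b measured 8.59, 8.82 and 8.59 in CD103+CD11b- cells, 8.75, 8.99 and 8.70 in CD103+CD11b+ cells and 8.41, 9.32 and 8.72 in CD103-CD11b+ cells without DSS. Reg3b after DSS measured 9.08, 9.58 and 9.58 in CD103+CD11b- cells, 9.01, 9.75 and 10.03 in CD103+CD11b+ cells and 9.02, 9.69 and 9.84 in CD103-CD11b+ cells. The DSS arrays of experiments 5 and 6 lay above every untreated array, while those of experiment 4 lay between 9.01 and 9.08. These were above the untreated arrays of their own subset in CD103+CD11b- and CD103+CD11b+ cells and within their range in CD103-CD11b+ cells. The difference over the subsets was 0.74 ± 0.19 (SE) (adjusted p = 0.224, limma), and 0.98 without experiment 4 (adjusted p = 0.0436). Reg3g measured 5.37, 4.90 and 5.30 in CD103+CD11b- cells, 6.01, 5.78 and 5.15 in CD103+CD11b+ cells and 5.07, 5.83 and 5.40 in CD103-CD11b+ cells without DSS. Reg3g after DSS measured 5.79, 5.88 and 5.37 in CD103+CD11b- cells, 5.18, 6.56 and 6.5 in CD103+CD11b+ cells and 5.36, 6.18 and 6.55 in CD103-CD11b+ cells. In experiment 4 the array lay above the untreated arrays of its subset in CD103+CD11b- cells and within their range in the other subsets. The difference was 0.51 ± 0.18 (SE) (adjusted p = 0.373), or 0.75 without experiment 4 (adjusted p = 0.0379). Neither Reg3b nor Reg3g was called over the subsets without any other experiment, or under the other filters or repeated normalization. The 2 genes are paralogs, and whether probes of one read RNA of the other was not tested.

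**Figure D5:**
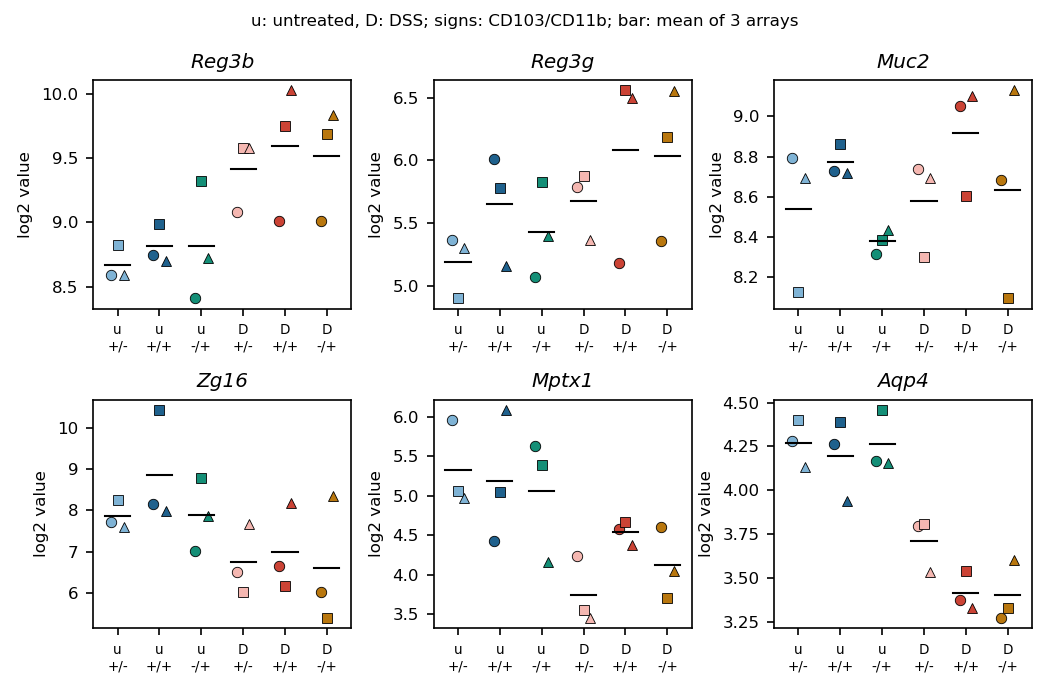
Log2 values of 6 epithelial genes by array, grouped as untreated (u) or DSS (D) and by CD103/CD11b sign, shaped by experiment, with a bar at the mean of 3 arrays. Aqp4 and Mptx1 are lower after DSS, Reg3b is higher in experiments 5 and 6, and Zg16 lies among untreated values in experiment 6.

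Other epithelial genes, 96 tested of 113 listed, had smaller median differences. Over the subsets 74 of 96 had a lower DSS mean, with a median of -0.14. The median and the share below 0 for all genes are given above with the members. Limma called 1 higher, the chemokine gene Cxcl5 (1.04 ± 0.15 (SE), adjusted p = 0.0331, where 0.15% of all genes were called higher), and 0 lower. By sublist the median was -0.23 for 25 junction and surface genes, -0.26 for 18 further colonocyte genes, -0.12 for 8 stem and progenitor genes and 0.15 for 9 endocrine and tuft cell genes. For the remaining sublists the mean level is given in experiments 1 to 3, then 4 to 6. It was 4.49, 4.37 and 4.40, then 4.25, 4.09 and 4.26 for goblet and secretory genes. Transcription and splicing factor genes had 5.51, 5.34 and 5.17, then 5.26, 5.15 and 5.235. Inflamed colon genes had 5.395, 5.39 and 5.25, then 5.30, 5.33 and 5.41. In the untreated CD103+CD11b- minus CD103+CD11b+ differences 68 of 96 were below 0, with 5 called lower, Cdh1, Tnip3, Ehf, St14 and Mep1a, where 4.09% of all genes were called lower. The share of all genes below 0 in that comparison is also given above.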

How the data were processed

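RNA of sorted colon dendritic cells was hybridised to 18 arrays. The authors deposited log2 expression values made with RMA, per the submitters' processing notes, with the RMA version not given in the sources used here. RMA includes quantile normalization, so the array medians lie between 3.99 and 4.09 and a shift shared by all genes would not be seen. GEO's platform annotation gave 1 symbol to 21640 of 34760 probe sets, several to 1321 and none to 11799. A gene took its probe set with the highest mean. Genes above 3.51 in at least 3 arrays were tested, 14003 in all, with limma 3.58.1 in R 4.3.3 (lmFit and eBayes over all 6 groups, Benjamini-Hochberg adjustment over all genes tested, threshold 0.05). For DSS over the 3 subsets the experiment means were compared. The script was tested on simulated data. The number of arrays limits the precision, 3 per group, and the median SE of a difference between groups was 0.166.

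Experiment numbers paired the subsets because the labels name a shared experiment. Deviations of same-numbered arrays correlated with a median of 0.246 in untreated cells (8 of 9 above 0.1) and 0.184 after DSS (9 of 9), against -0.124 and -0.134 for other pairs.

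The members and gene lists were chosen with earlier results of these data known. Values in every array were given for members called in any comparison, the 8 with the highest mean, the 5 with the widest range of group means and the 5 with the widest range within a group. Elf3 and Reg3g were added after their values were seen. Scores have no test. Promoters came from RefSeq, with an entry for 31 of the 41 members. Alternatives were no filter and a stricter one, repeated quantile normalization, only the groups compared, the replicate block, array weights and leaving out each array.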

Additional observations from a re-analysis of the deposited data

How the results depend on the processing

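Directions were compared for the score differences and for the calls of Cldn7, Gp2, Ano1, Aqp4 and Mptx1 without the block, and they held under the alternatives run, except that the score of DSS CD103+CD11b+ against CD103-CD11b+ cells crossed 0, to -0.0245, without experiment 5 of DSS CD103-CD11b+ cells. Counts of called members moved as follows, each with the settings that moved it. Untreated CD103+CD11b- against CD103-CD11b+ cells gave 0 with no filter on low values, with only the groups compared in the fit or with array weights. Untreated CD103+CD11b- against CD103+CD11b+ cells gave 1 with only those groups and 3 with the replicate block, and untreated CD103+CD11b+ against CD103-CD11b+ cells gave 1 with the block. After DSS, CD103+CD11b- against CD103-CD11b+ cells gave 1 with the block or array weights, CD103+CD11b- against CD103+CD11b+ cells gave 2 with only those groups, and CD103+CD11b+ against CD103-CD11b+ cells gave 1 with only those groups, the block or array weights. DSS in CD103+CD11b+ cells gave 1 with no filter or array weights and 0 with repeated quantile normalization or only those groups, and in CD103-CD11b+ cells 0 with only those groups. With the median in place of the mean, the score difference after DSS was -0.5531 in CD103+CD11b- cells, -0.5515 in CD103+CD11b+ cells and -0.5186 over the subsets. With Gp2 left out, chosen after seeing the data, the score difference of DSS CD103+CD11b+ minus CD103-CD11b+ was 0.0490 against 0.105. The causes were not tested. The block changed no other call of a member. Over all genes, calls for untreated CD103+CD11b+ against CD103-CD11b+ cells numbered 575, but 150 with only those groups and 367 with array weights, and after DSS 221, but 366 with array weights. With only the groups compared, DSS calls fell from 12 to 0 in CD103+CD11b+ and from 14 to 3 in CD103-CD11b+ cells, and with no filter those over the subsets from 26 to 16. Array weights gave 1 call in the interaction of CD103+CD11b- with CD103+CD11b+ cells, against 0.

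Leaving out 1 array (1 experiment for DSS over the subsets) moved the counts between 0 and 1 for untreated CD103+CD11b- against CD103-CD11b+, for DSS CD103+CD11b- against CD103+CD11b+, and for DSS in CD103+CD11b+ and in CD103-CD11b+ cells, between 0 and 2 for untreated CD103+CD11b- against CD103+CD11b+ cells, and between 0 and 3 over the subsets. The score differences between subsets then ranged from -0.2099 to -0.0080, -0.4409 to -0.2344 and 0.1126 to 0.3194 untreated and from -0.3223 to -0.0901, -0.3481 to -0.2182 and -0.0245 to 0.2077 after DSS, for CD103+CD11b- minus CD103-CD11b+, CD103+CD11b- minus CD103+CD11b+ and CD103+CD11b+ minus CD103-CD11b+. After DSS the score differed by -0.448 to -0.2757, -0.4984 to -0.2919 and -0.387 to -0.1548 in the 3 subsets and by -0.4396 to -0.26 over them. Scores over members past the filter or over all probe sets equal the main ones, since each member has 1 probe set and all 40 passed.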

Other observations

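Fcgbp, the IgG-Fc-binding protein of goblet cell mucus, was read only by probe sets shared with other genes. The probe set shared with 9530053A07Rik measured 4.11 ± 0.15 (SD, n = 3), 4.11 ± 0.07 and 4.09 ± 0.27 without DSS in the CD103+CD11b-, the CD103+CD11b+ and the CD103-CD11b+ subset and 3.997 ± 0.191, 3.82 ± 0.07 and 4.07 ± 0.16 after DSS. The other probe sets are shared with the ribosomal protein gene Rpl41 and are not used as a reading of Fcgbp.

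Of the wider epithelial list, 4 genes called between subsets are given here, chosen after their values were seen. The potassium channel gene Kcnk6 was higher in CD103+CD11b- than CD103-CD11b+ cells by 1.19 ± 0.25 (SE) untreated (adjusted p = 0.00261, limma) and by 1.19 ± 0.25 after DSS (adjusted p = 0.00307). The alarmin gene Il33 was lower in DSS CD103+CD11b- than CD103-CD11b+ cells with a difference of -1.27 ± 0.29 (adjusted p = 0.00739). Plac8 was lower in DSS CD103+CD11b- than CD103+CD11b+ cells with a difference of -0.90 ± 0.22 (adjusted p = 0.0159), and Tnip3 with a difference of -1.31 ± 0.24 (adjusted p = 0.0014). Kcnk6 went the other way there, at 0.86 ± 0.25 (adjusted p = 0.044, limma). So did the listed genes Anxa1 and Cd44, at 0.60 ± 0.16 and 0.42 ± 0.11 (adjusted p = 0.0278 and 0.0245). In that comparison 5.96% of all genes were called in either direction. CD103+CD11b- against CD103-CD11b+ cells had 10.3% untreated and 8.53% after DSS. Plac8 and Tnip3 were also lower in DSS CD103+CD11b- than CD103-CD11b+ cells, at -0.78 ± 0.22 and -1.12 ± 0.24 (adjusted p = 0.0323 and 0.00425, limma). In untreated cells Tnip3 was lower in CD103+CD11b- than CD103-CD11b+ cells (-0.94 ± 0.24, adjusted p = 0.0144) and than CD103+CD11b+ cells (-1.48 ± 0.24, adjusted p = 0.000358).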
